A study of Triticum aestivum with 6 samples.

Results

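ABC and MATE transporters are mostly membrane proteins that carry pigments, hormones, lipids and toxins out of the cytosol. Of the 107891 genes in the deposited wheat table, 346 carried a description that places them in these families. A gene was taken as a member when its description contained ABC transporter, multidrug resistance-associated, pleiotropic drug resistance, MATE efflux, DETOXIFICATION or TRANSPARENT TESTA 12. The choice rule reads the description and no expression value. Of the 346 members, 241 were ABC transporters and 105 were MATE transporters. The ABC genes were split by the letter in their description into 9 ABCA, 59 ABCB, 56 ABCC, 5 ABCD, 4 ABCE, 7 ABCF, 34 ABCG and 9 ABCI genes. A further 55 genes were described as pleiotropic drug resistance (PDR) proteins, the full-size form of ABCG, and 3 named no subfamily. A description names the closest matching protein, often of another species, and does not establish what a wheat gene transports.

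The libraries were made from grain of a purple-grained and of a white-grained bread wheat (Triticum aestivum) collected 30 days after flowering, and each type had 3 libraries. Both wheats grew in pots in a climate chamber, and the labels give neither cultivar names nor alleles, so grain colour cannot be told apart from any other genetic difference between them. Nothing in the labels says that the 3 libraries of a type are different plants, and a p-value here therefore covers the spread among these samples alone, possibly technical. The tissue label reads grain while the extraction protocol speaks of stems and buds.

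Anthocyanins, the pigments of purple grain, are made in the cytosol and stored in the vacuole. In Arabidopsis the MATE protein TRANSPARENT TESTA 12 exchanges protons for glycosylated flavan-3-ols at the vacuolar membrane of the seed coat, and in maize and Arabidopsis ABCC proteins use ATP to move flavonoids and glutathione conjugates into the vacuole. ABCB and ABCG proteins mostly act at the plasma membrane on hormones, lipids and surface waxes, while ABCE and ABCF proteins have no membrane-spanning part and work with ribosomes.

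Library totals ran over 80898310 to 102868886 counts in purple grain and 78660932 to 88002127 in white grain. Genes described as gliadin, glutenin or avenin-like protein, storage proteins of the starchy endosperm, made up 8.40% to 21.8% of the summed FPKM in purple grain and 10.6% to 20.6% in white grain. Of 101 tested, 18 (17.8%) were called lower and none higher by edgeR, against 24 lower and 2 higher at an unadjusted p under 0.05 and 22 lower and 2 higher by DESeq2. FPKM is the authors' count scaled for gene length and library size. In summed FPKM, markers of embryo and aleurone lay apart between the grain types, and those of green tissue only narrowly so. The sums of markers of dividing tissue overlapped. Em protein, 7S globulin and Globulin-1 genes, markers of embryo and aleurone, summed to 2593 to 11760 FPKM in purple grain and 243.9 to 1309 FPKM in white grain. Of these 23 genes, 6 had no count in any library, 10 were tested, all 10 had a positive difference and 1 was called higher by edgeR, while DESeq2 called 6 of them higher. Without adjustment, 7 were higher with an edgeR p under 0.05. Chlorophyll-binding, Rubisco small chain and photosystem I genes, markers of green tissue, summed to 42.5 to 296.9 FPKM in purple grain and 301.6 to 383.1 FPKM in white grain. Of these 92 genes, 8 had no count, 51 were tested, 49 had a negative difference and none was called, although 3 had an unadjusted edgeR p under 0.05 and DESeq2 called 1 lower. Histone H4, cyclin-B and replication licensing genes, markers of dividing tissue, summed to 242.9 to 583.9 FPKM in purple grain and 222.8 to 493.9 FPKM in white grain. Of 53 tested, 2 (3.77%) were called higher and 0 lower by edgeR, and DESeq2 called 3 higher and 2 lower. Purple replicate 3 stood apart, with Pearson correlations of 0.885 and 0.891 across genes with purple replicates 1 and 2, against 0.945 between those libraries. White replicate 1 had 0.913 and 0.898 with white replicates 2 and 3, against 0.948 between those.

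The transporters were mostly weakly transcribed in this grain. Of the 346 members, 87 had no count in any library, 140 were counted but averaged under 0.5 FPKM over the 6 libraries, and 119 reached that level and were tested. That is 34.9% of the ABC genes and 33.3% of the MATE genes, beside 44.9% of all genes. The tested members had a median level of 1.88 FPKM, against 3.26 FPKM for all tested genes, with 2.19 FPKM for ABC and 1.48 FPKM for MATE genes. A mean of at least 10 FPKM was reached by 9 members, and 24 reached at least 5 FPKM.

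In the comparison of purple with white grain, 3 members were called higher and 2 lower, which is 4.20% of the 119 tested. A gene was called when edgeR's quasi-likelihood test gave an adjusted p under 0.05 over all 48492 tested genes and the log2 difference was at least 1 in size. By the same call, 2.87% of all tested genes were higher and 2.32% lower, 5.19% in either direction, so the share among these description-matched transporters was near the background. A wider membership, chosen after seeing the data, had 11 of 230 tested genes called higher and 9 lower (8.70% in either direction). At an unadjusted edgeR p under 0.05, 16 members (13.4%) were higher and 9 (7.56%) lower, beside 14.2% and 12.6% of all tested genes. DESeq2, a more permissive test here, called 11 members higher and 6 lower, beside 9.46% and 6.24% of all genes it tested. In bulk grain, fewer cells of a type and less RNA per cell cannot be told apart.

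The members' differences centred near 0. Their median log2 difference, purple over white, was 0.14, against 0.02 over all tested genes, and 69 of 119 were positive. In FPKM, the purple libraries all lay above the white libraries for 13 tested members (10.9%) and all below for 14 (11.8%). Over all tested genes these shares were 13.3% and 19.9%, also in FPKM. With the TMM scaling used in the edgeR fit, 20 members lay all above and 14 all below. The shares of all tested genes are not given on that scale, so the number above depends on the scaling and its standing against the background is open. A log2 difference of at least 1 in size was reached by 28 members (23.5%) and by 26.4% of all tested genes.

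**Figure D1:**
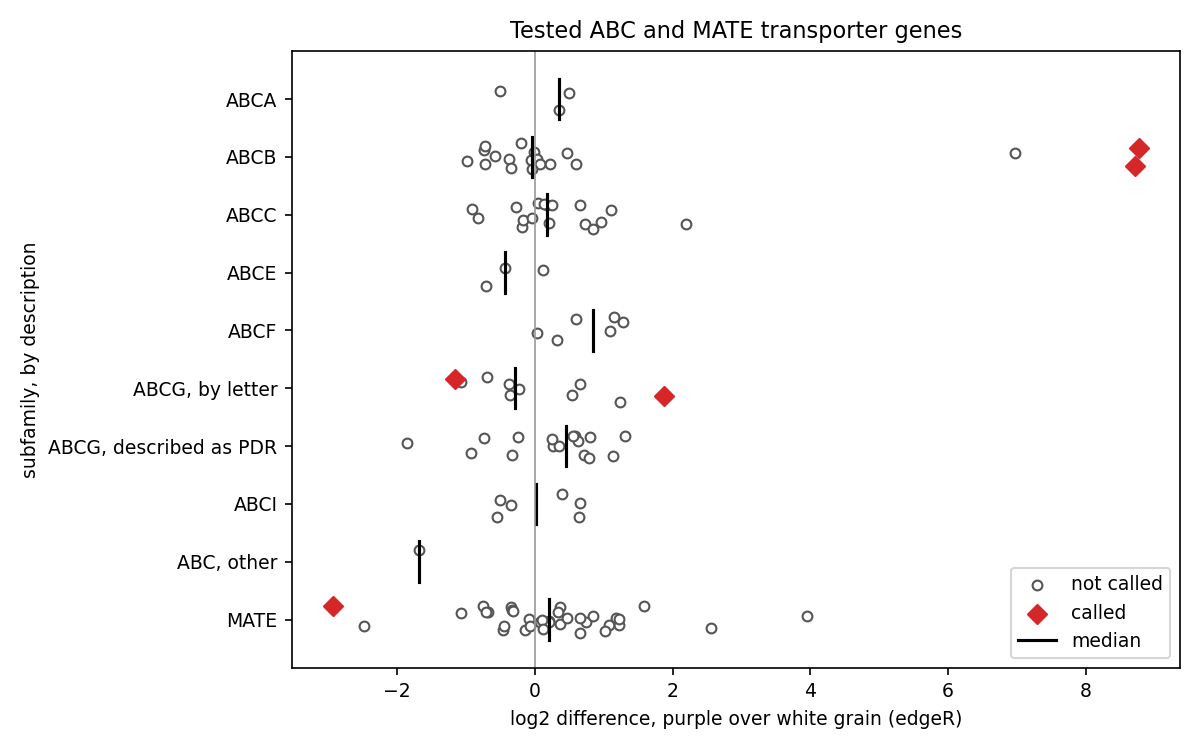
Each point is a tested member of one of the 10 groups shown, placed by its log2 difference, purple over white grain (horizontal axis, edgeR fit), within its subfamily (vertical axis); filled diamonds are called genes, open circles are not, and the bar is the subfamily median. The 2 called ABCB genes stand at 8.72 and 8.78 and their uncalled partner at 6.97, while most other members lie within 1 of 0.

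The number of calls depended on single libraries, among the transporters as among all genes. Without purple replicate 2 or without white replicate 2 no member was called in either direction by edgeR, and without white replicate 3 only 1 was called higher and 0 lower. Over all 48492 tested genes, 229 were called higher and 351 lower without purple replicate 2, 385 and 390 without white replicate 2, and 402 and 405 without white replicate 3, against 1391 and 1127 with all libraries. Among the members, the number of lower calls was 0 in each of the fits without purple replicate 1, 2 or 3 or without white replicate 2 or 3. Over all 48492 tested genes, 562 were called lower without purple replicate 1 and 2411 without purple replicate 3. Without purple replicate 3, the library that stands apart, 6 members and 2562 of all tested genes were called higher. Those 6 were 2 ABCB19 genes and 1 ABCG7 gene called in the full comparison, together with TraesCS1D02G388600, TraesCS2D02G055600 and TraesCS4D02G068800.

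The widest differences among the tested members matched by description belonged to genes described as ABC transporter B family member 19. Some genes of the wider membership differed more. In Arabidopsis this protein exports auxin, the growth hormone, from cells, and later work also gave it a role in brassinosteroid export. The table lists 10 genes with that description, of which 3 lie on chromosome group 2, and those 3 were the only ones of the 10 that were tested. All 3 were read in every purple library and close to absent from the white libraries.

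TraesCS2A02G344300 (chromosome 2A, 581163889 to 581170813, minus strand, in the authors' coordinates) had 1.51, 2.76 and 4.36 FPKM in purple replicates 1, 2 and 3, against 0.0192, 0 and 0 FPKM in white replicates 1, 2 and 3. These values came from 758, 1316 and 1732 counts in purple grain and 8, 0 and 0 counts in white grain. The groups did not overlap. Purple over white, the log2 difference was 8.78 ± 1.25 (SE) with an edgeR adjusted p of 0.0167. It was no longer called without purple replicate 2 (adjusted p = 0.0678) or without white replicate 2 (adjusted p = 0.0562), where the log2 difference was 8.80 and 8.17.

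TraesCS2B02G341800 (chromosome 2B, 487231445 to 487237901, minus strand) had 381, 1062 and 1303 counts in purple grain and 6, 0 and 0 counts in white grain. In FPKM these were 0.837, 2.46 and 3.63 in purple grain and 0.0160, 0 and 0 in white grain. Its log2 difference was 8.72 ± 1.30 (SE), with an edgeR adjusted p of 0.0189. The call was lost without purple replicate 2 (adjusted p = 0.0760), without white replicate 2 (0.0654) or without white replicate 3 (0.0609).

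TraesCS2D02G322600 (chromosome 2D, 413951344 to 413957843, minus strand) showed the same pattern and missed the threshold. It had 1.52, 2.78 and 5.74 FPKM in purple grain and 0.0820, 0 and 0 FPKM in white grain, from 715, 1234 and 2123 counts in purple grain and 30, 0 and 0 counts in white grain. The log2 difference was 6.97 ± 1.61 (SE), with an edgeR adjusted p of 0.0586. Over its alternatives the adjusted p ran from 0.00574 to 0.160, with 0.0160 without white replicate 1 and 0.0211 by DESeq2.

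All white counts of the 3 genes came from white replicate 1, and purple replicate 3 had the highest value of each. Without white replicate 1 the white libraries were at 0, and 3 counts were then set for each. Against white replicates 2 and 3, purple grain was at least 455-fold (2A), 331-fold (2B) and 494-fold (2D) higher. These folds leave out the only white library with counts and are not lower bounds for the full comparison. Without that library the fitted log2 differences became 13.4, 12.94 and 13.52, values that depend on the prior count. On the log2(FPKM + 1) scale of limma, which understates low genes, the differences with all libraries were 1.88, 1.62 and 1.96. Summed over the 3 genes, the level was 3.87, 7.99 and 13.7 FPKM in purple replicates 1, 2 and 3, against 0.117, 0 and 0 FPKM in white grain. The embryo and aleurone markers did not follow that order within purple grain, where they took 1.14%, 1.54% and 0.311% of the summed FPKM in replicates 1, 2 and 3. The storage protein genes of the starchy endosperm did, with 8.40%, 9.21% and 21.8% in purple replicates 1, 2 and 3, against 17.4%, 10.6% and 20.6% in white replicates 1, 2 and 3. The part of cell composition in the difference was not tested. Reads can fit more than 1 of the A, B and D copies of a wheat gene, so the split among the 3 copies is uncertain. The other 7 genes described as ABCB19 lie on chromosome groups 4, 6 and 7. Their summed levels per group stayed at 0.00998 to 0.298 FPKM in purple grain and 0.0176 to 0.480 FPKM in white grain. The sums of groups 4 and 6 overlapped. Those of group 7, also low, were 0.159, 0.191 and 0.171 FPKM in purple grain and 0.0897, 0.109 and 0.0280 FPKM in white grain, without overlap.

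The genes beside the called copies were counted too. Of the 5 genes on either side, 7 were tested around the 2A gene and none was called, and 6 were tested around the 2B gene, of which 1 was called lower. Around the other called members, 4 (3B gene), 5 (5A gene) and 6 (6D gene) were tested, with 1 called lower beside the 6D gene and no other call by edgeR.

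**Figure D2:**
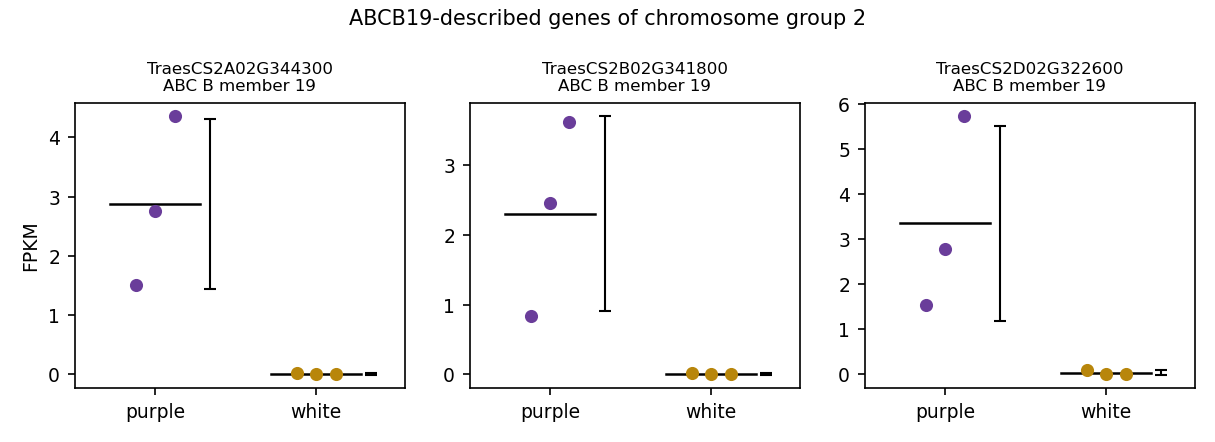
FPKM of the 3 ABCB19-described genes of chromosome group 2 in purple (left) and white (right) grain; points are libraries in replicate order, the line is the mean and the bar the SD over 3 libraries, and each panel has its own vertical scale. Purple libraries run over 0.837 to 5.74 FPKM, and no white library exceeds 0.0820 FPKM.

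The remaining ABCB genes were close to level. Of the 19 tested, the 3 ABCB19 genes alone had an unadjusted edgeR p under 0.05, and the subfamily median was -0.05, or -0.18 when scaled by library totals only. The most abundant ABCB gene was TraesCS5A02G392600, described as ABCB25, a mitochondrial exporter that in Arabidopsis serves iron-sulphur protein assembly. It had 5.41, 6.04 and 7.23 FPKM in purple grain and 5.40, 5.41 and 6.44 FPKM in white grain, with overlapping groups and 0.22 ± 0.22 for the log2 difference (SE; adjusted p = 0.562 by edgeR). The ABCB20-described pair on chromosome group 4, relatives of Arabidopsis auxin carriers, had log2 differences of -0.37 and -0.34, and neither passed the test. Over the whole subfamily the summed level was 36.6, 44.3 and 50.5 FPKM in purple grain and 33.0, 50.0 and 43.5 FPKM in white grain.

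Among the ABCG genes named by letter and not as PDR proteins, 1 gene was called higher and 1 lower of 10 tested. TraesCS3B02G017100 (chromosome 3B, 7063270 to 7069210, minus strand), described as ABCG member 7, had 1.06, 2.12 and 1.46 FPKM in purple grain and 0.346, 0.590 and 0.444 FPKM in white grain. The groups did not overlap. The log2 difference was 1.88 ± 0.37 (SE) with an edgeR adjusted p of 0.0403. The call was lost without purple replicate 2 (adjusted p = 0.136) or without white replicate 1, 2 or 3 (0.0775, 0.104 and 0.128), and by library totals.

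Its partners on chromosomes 3A and 3D lay in the same direction without passing the test. TraesCS3A02G026500 had 2.60, 3.73 and 3.09 FPKM in purple grain and 0.942, 2.10 and 1.35 FPKM in white grain, again without overlap (log2 difference 1.24 ± 0.30, SE; edgeR adjusted p = 0.0665). TraesCS3D02G019000 had 0.782, 1.62 and 2.22 FPKM in purple grain and 0.554, 1.51 and 1.21 FPKM in white grain, which overlap (log2 difference 0.65 ± 0.50, SE; edgeR adjusted p = 0.436). Together the 3 genes summed to 4.44, 7.47 and 6.77 FPKM in purple grain and 1.84, 4.20 and 3.01 FPKM in white grain.

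The lower call was TraesCS6D02G380300 (chromosome 6D, 461449512 to 461456511, plus strand), described as ABCG member 28, a protein that in Arabidopsis is needed for pollen tube growth. It had 0.767, 0.719 and 0.617 FPKM in purple grain and 1.62, 1.60 and 1.82 FPKM in white grain. The spread within each grain type was narrow and the groups did not overlap. The log2 difference was -1.16 ± 0.22 (SE) with an edgeR adjusted p of 0.0377. The call was lost when any 1 of the 6 libraries was left out, with adjusted p from 0.0512 without purple replicate 3 to 0.132 without white replicate 3. Its partners were near the detection limit. The 6A copy had 19, 25 and 16 counts in purple grain and 0, 0 and 28 counts in white grain, and the 6B copy had 0 counts in purple grain and 0, 0 and 11 counts in white grain. A second set with this description on chromosome group 1 had log2 differences of -1.07 (1A), -0.37 (1B) and -0.36 (1D), none called.

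The most abundant gene of this kind was TraesCS7D02G269400, described as ABCG member 45. It had 14.9, 11.1 and 8.33 FPKM in purple grain and 9.69, 33.1 and 19.4 FPKM in white grain, a wide spread with overlap (log2 difference -0.70 ± 0.41, SE; edgeR adjusted p = 0.316).

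None of the 16 tested PDR-described genes was called by edgeR, and DESeq2 called 1 (6.25%) lower, beside 6.24% of all genes it tested. At an unadjusted edgeR p under 0.05, 0 were higher and 2 (12.5%) lower, beside 14.2% and 12.6% of all tested genes. PDR proteins are full-size ABCG transporters of the plasma membrane that in other plants carry terpenoids, abscisic acid and other stress compounds. TraesCS3A02G122500, described as PDR protein 6, was the most abundant of them, with 1.82, 1.71 and 2.67 FPKM in purple grain and 3.46, 10.3 and 10.8 FPKM in white grain. The groups did not overlap, but white replicate 1 lay closer to the purple libraries than to the other white ones. Its log2 difference was -1.85 ± 0.43 (SE) with an edgeR adjusted p of 0.0596, which became 0.0175 without white replicate 1 and 0.0010 by DESeq2. TraesCS5D02G190600, described as a PDR protein, had 3.45, 2.22 and 1.19 FPKM in purple grain and 4.47, 4.34 and 5.03 FPKM in white grain, without overlap (log2 difference -0.93 ± 0.37, SE; edgeR adjusted p = 0.176). Of the 16 genes, 11 had a positive difference, and the median was 0.45.

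**Figure D3:**
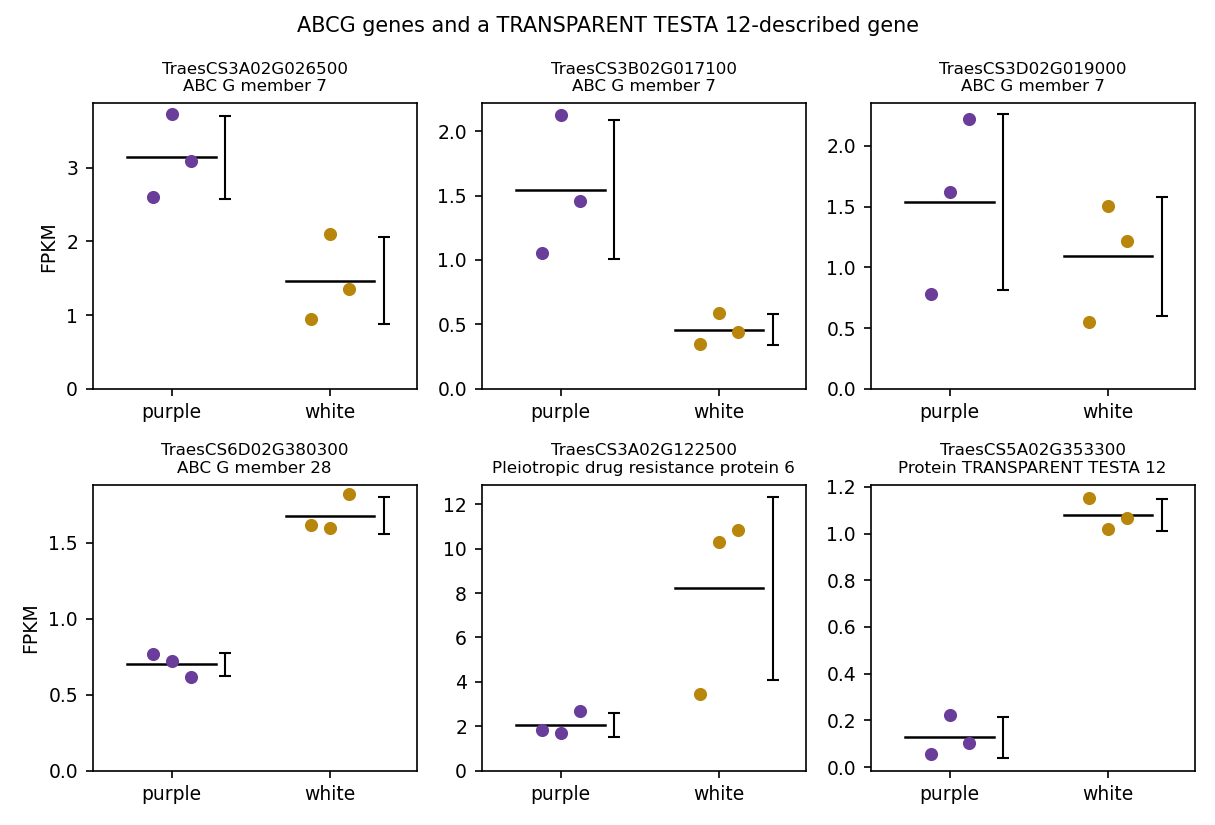
FPKM of the 3 ABCG7-described genes of chromosome group 3, the ABCG28 gene of 6D, the PDR6 gene of 3A and the TRANSPARENT TESTA 12-described gene of 5A, in purple (left) and white (right) grain; points are libraries, the line is the mean and the bar the SD over 3 libraries. The called 3B gene lies between 1.06 and 2.12 FPKM in purple grain, above the white libraries, and the called 6D and 5A genes lie below every white library.

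No ABCC gene matched by description was called by edgeR, although this subfamily holds the vacuolar pumps known from maize and Arabidopsis for anthocyanins and conjugates. Of 17 tested ABCC genes, 5 (29.4%) were higher and 1 (5.88%) lower at an unadjusted edgeR p under 0.05. Over all tested genes these shares were 14.2% and 12.6%. DESeq2 called 2 (11.8%) higher and 0 lower, beside 9.46% and 6.24% of all genes it tested. The ABCC median log2 difference was 0.17. The summed level was 81.1, 85.4 and 68.9 FPKM in purple grain and 66.1, 90.3 and 61.1 FPKM in white grain. In the wider membership, edgeR called TraesCS2B02G485600, whose description names ABCC1, higher (log2 difference 1.22; adjusted p = 0.0363). TraesCS7B02G016500, with the same KEGG orthology number, K05666, was also called higher (log2 difference 6.37; edgeR adjusted p = 0.00423). TraesCS4B02G253200, with the number K05665, was called lower (log2 difference -1.99; edgeR adjusted p = 0.0404).

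Among the tested ABCC genes matched by description, those closest to a call were described as ABCC2. In Arabidopsis ABCC2 is a vacuolar transporter of glutathione conjugates and phytochelatins that can also carry anthocyanin with glutathione. TraesCS2A02G463900 had 5.08, 7.12 and 5.37 FPKM in purple grain and 3.19, 4.33 and 2.33 FPKM in white grain, a difference of 0.96 ± 0.26 on the log2 scale (SE; adjusted p = 0.0789 by edgeR). TraesCS2D02G464800 had 5.22, 8.07 and 5.46 FPKM in purple grain and 2.06, 4.83 and 2.80 FPKM in white grain, a difference of 1.11 ± 0.31 on the log2 scale (SE; adjusted p = 0.0884 by edgeR). In both genes every purple library lay above every white library, and DESeq2 gave adjusted p of 0.0127 and 0.0171. By edgeR both stayed above 0.05 whichever library was left out of the edgeR fit.

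The most abundant ABCC gene was TraesCS5A02G512500, described as ABCC5, which in Arabidopsis loads phytate, the phosphorus store of seeds, into vacuoles. It had 25.6, 27.2 and 21.9 FPKM in purple grain and 21.2, 33.0 and 24.6 FPKM in white grain. Its log2 difference was 0.05 ± 0.22 (SE; edgeR adjusted p = 0.907). The sign of so small a difference turned under 5 of the other settings tried, the lowest value being -0.09. The 4D gene with the same description, TraesCS4D02G339000, also chosen after its values were seen, had 14.1, 18.4 and 11.5 FPKM in purple grain and 16.1, 15.3 and 10.6 FPKM in white grain, also overlapping. Likewise outside the rule for named genes, TraesCS2D02G055600, described as ABCC14-like, had 1.27, 1.81 and 0.367 FPKM in purple grain and 0.293, 0.181 and 0.317 FPKM in white grain. Its log2 difference was 2.19 ± 0.63 (SE; edgeR adjusted p = 0.0911), or 2.63 without purple replicate 3 (edgeR adjusted p = 0.0248).

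Of the 35 tested MATE genes, none was called higher and 1 (2.86%) was called lower. At an unadjusted edgeR p under 0.05, 3 (8.57%) were higher and 2 (5.71%) lower, beside 14.2% and 12.6% of all tested genes. DESeq2 called 2 (5.71%) higher and 2 (5.71%) lower, beside 9.46% and 6.24% of all genes it tested. The median log2 difference of the MATE genes was 0.20, or 0.04 when scaled by library totals only. Their summed level was 153.6, 114.5 and 83.5 FPKM in purple grain and 93.3, 140.8 and 99.4 FPKM in white grain.

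The description TRANSPARENT TESTA 12 was given to 56 genes, of which 17 had no count and 14 were tested. The called one was TraesCS5A02G353300 (chromosome 5A, 555773219 to 555775385, plus strand), which had 0.0559, 0.223 and 0.101 FPKM in purple grain and 1.15, 1.02 and 1.07 FPKM in white grain. These were 10, 35 and 14 counts in purple grain and 148, 134 and 152 counts in white grain, with no overlap. The log2 difference was -2.93 ± 0.62 (SE) with an edgeR adjusted p of 0.0482. The call was lost when any 1 library was left out (adjusted p 0.0689 without purple replicate 3 to 0.132 without white replicate 3). In FPKM, which lacks the TMM scaling of the fit, the green tissue markers also summed lower in every purple library. They reached 65.4, 42.5 and 296.9 FPKM in purple grain against 366.1, 301.6 and 383.1 FPKM in white grain. Purple replicate 3 was thus only just below white replicate 2, and these sums were not computed with TMM scaling. The part of these markers in the differences of this gene and of the 6D gene was not tested.

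The gene belongs to a family of 24 genes with that description on chromosome group 5, of which 5 were tested. The other 4 tested genes had log2 differences of 0.47 (TraesCS5D02G333000), 0.33 (TraesCS5A02G326600), 0.21 (TraesCS5A02G142000, negative under 2 other settings) and -1.07 (TraesCS5B02G327100), and none was called. The descriptions do not say which untested genes are its 5B and 5D copies. TraesCS5B02G355700, chosen after its values were seen, had 3, 0 and 0 counts in purple grain and 41, 37 and 19 counts in white grain. TraesCS5D02G360400, chosen likewise, had 38, 56 and 19 counts in purple grain and 45, 87 and 118 counts in white grain, which overlap. Other untested genes of the family lay in both directions.

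The most abundant TRANSPARENT TESTA 12-described gene was TraesCS2B02G296100, with 6.51, 6.17 and 6.09 FPKM in purple grain and 2.40, 6.62 and 3.53 FPKM in white grain. In FPKM, white replicate 2 lay above all purple libraries, so the groups overlap on that scale, which lacks the TMM scaling of the fit. White replicate 2 had 81075605 counts but an effective library size of 96022703 after TMM scaling, so its level is lower on the scale of the fit. The log2 difference was 0.74 ± 0.31 (SE; edgeR adjusted p = 0.185). TraesCS2D02G277600 differed by 1.18 ± 0.70 (SE) on the log2 scale, TraesCS4D02G302500 by 0.37, with -0.16 under 1 other setting, and TraesCS7D02G014200 by -0.67, none called. TraesCS3B02G562400, chosen after its values were seen, had 1.82, 0.702 and 0.511 FPKM in purple grain and 0, 0.0376 and 0.167 FPKM in white grain, without overlap. Its log2 difference of 3.95 ± 1.31 (SE) had an edgeR adjusted p of 0.121, and DESeq2 gave 0.0107. Summed over the 56 genes, the level was 34.0, 30.2 and 25.0 FPKM in purple grain and 20.7, 36.1 and 27.2 FPKM in white grain.

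Among the DETOXIFICATION-described MATE genes, 9 of 24 were tested and none was called by edgeR, by DESeq2 or at an unadjusted p under 0.05. The most abundant MATE gene, TraesCS5D02G332300, described as DETOXIFICATION 40, had 21.3, 9.20 and 6.65 FPKM in purple grain and 15.6, 16.3 and 10.2 FPKM in white grain. Purple replicate 1 was the highest library and purple replicate 3 the lowest, and the log2 difference was -0.08 ± 0.44 (SE; edgeR adjusted p = 0.924), with a positive sign under 3 other settings. Its copies on 5B and 5A differed by -0.14 and -0.35 on the log2 scale, with adjusted p of 0.862 and 0.360 by edgeR. The 5B difference turned to 0.21 under 1 other setting. TraesCS2D02G228200, described as DETOXIFICATION 40-like, had 3.81, 3.02 and 6.50 FPKM in purple grain and 4.01, 11.1 and 3.81 FPKM in white grain, overlapping, and differed by -0.33 (edgeR adjusted p = 0.673; 0.22 under 1 other setting). The DETOXIFICATION 29-described genes of chromosome group 4, chosen after their values were seen, had log2 differences between 1.02 and 2.56. The widest of them, TraesCS4D02G068800, had 5.24, 1.49 and 0.159 FPKM in purple grain and 0.544, 0.353 and 0.302 FPKM in white grain, which overlap. Its edgeR adjusted p was 0.189 with all libraries and 0.0369 without purple replicate 3, the lowest purple library.

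Of the genes described as MATE efflux family proteins, 14 of 27 were tested and none was called by edgeR. DESeq2 called 1 of these (7.14%) higher and 1 (7.14%) lower, beside 9.46% and 6.24% of all genes it tested. The numbers were the same at an unadjusted edgeR p under 0.05, beside 14.2% and 12.6% of all tested genes. TraesCS1D02G388600, described as MATE efflux family protein 9, had 11.4, 9.80 and 4.92 FPKM in purple grain and 3.78, 4.33 and 5.18 FPKM in white grain. Purple replicate 3 lay within the white range while purple replicates 1 and 2 lay above it. A log2 difference of 1.07 ± 0.33 (SE; adjusted p = 0.108 by edgeR) passed without purple replicate 3 (edgeR adjusted p = 0.0260). TraesCS7B02G374500, also described as family protein 9, had 0.230, 0.122 and 0.690 FPKM in purple grain and 0.335, 2.67 and 3.45 FPKM in white grain (log2 difference -2.47 ± 0.97, SE; edgeR adjusted p = 0.166).

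**Figure D4:**
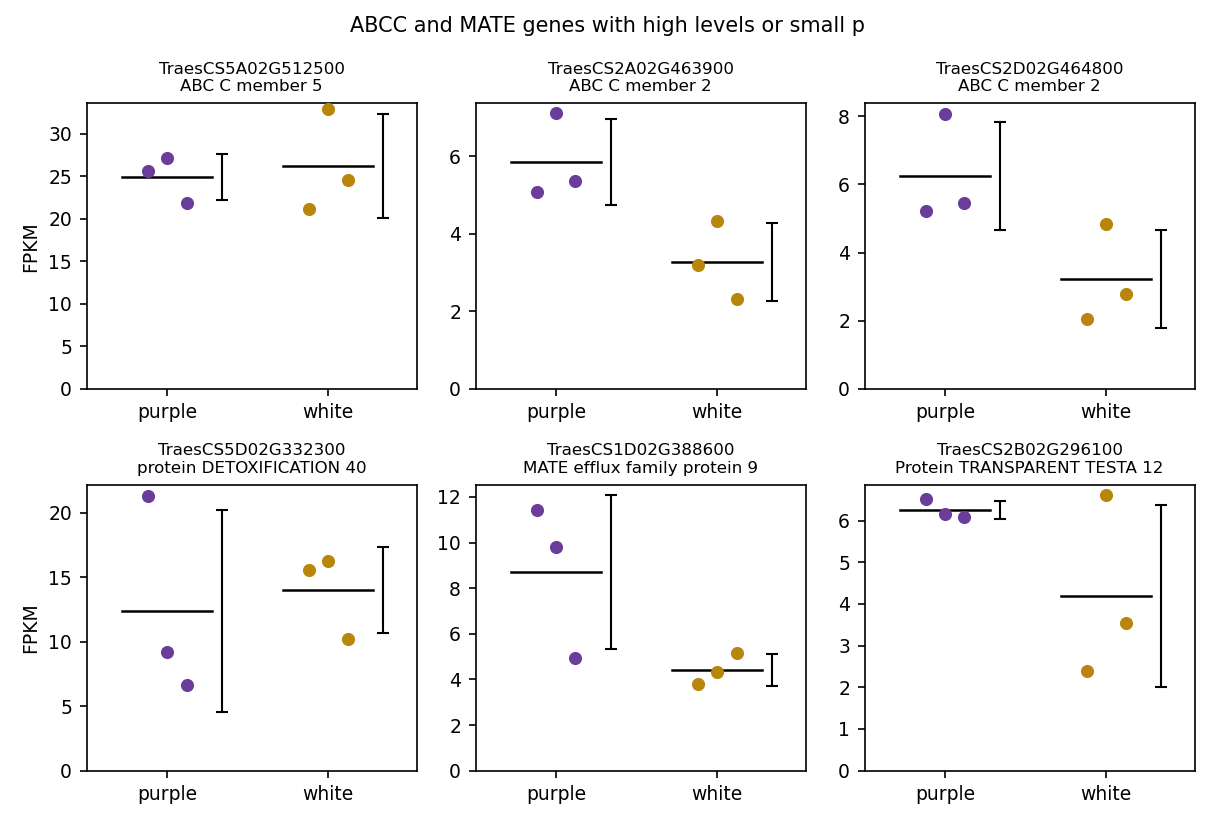
FPKM of ABCC and MATE genes in purple (left) and white (right) grain; points are libraries, the line is the mean and the bar the SD over 3 libraries. The ABCC5 gene overlaps at 21.9 to 27.2 FPKM in purple and 21.2 to 33.0 FPKM in white grain, whereas both ABCC2 genes have all purple libraries above all white ones.

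The ABCF genes were the most abundant of the ABC subfamilies and all 6 tested had a positive difference, with a median of 0.85, or 5 of 6 and 0.76 when scaled by library totals only, yet none was called by edgeR. At an unadjusted edgeR p under 0.05, 2 (33.3%) were higher, beside 14.2% of all tested genes. DESeq2 called those 2 (33.3%) higher, beside 9.46% of all genes it tested. ABCF proteins are soluble relatives of yeast GCN20, which acts in the control of translation. TraesCS7D02G290800, described as ABCF1, had 80.2, 167.0 and 63.4 FPKM in purple grain and 39.3, 57.4 and 43.8 FPKM in white grain. TraesCS7A02G291300, with the same description, had 56.7, 120.0 and 50.3 FPKM in purple grain and 29.6, 46.6 and 35.9 FPKM in white grain. Neither gene's groups overlapped, and purple replicate 2 was far above the other libraries in both. The log2 differences were 1.28 ± 0.41 and 1.15 ± 0.40 (SE), with edgeR adjusted p of 0.117 and 0.133.

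Summed over the 7 ABCF genes, the level was 169.0, 326.2 and 124.9 FPKM in purple grain and 95.5, 119.9 and 98.3 FPKM in white grain. The embryo and aleurone markers took the same order within each grain type, except that white replicates 1 and 3 changed places, with 0.109%, 0.178% and 0.0304% of the summed FPKM in white replicates 1, 2 and 3. Their part in the result was not tested. Without its 2 most abundant genes the ABCF sum was 32.1, 38.4 and 11.1 FPKM in purple grain and 26.5, 15.9 and 18.5 FPKM in white grain, which overlap.

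The ABCA, ABCE and ABCI genes and the ABC genes with no subfamily showed no call by edgeR. At an unadjusted edgeR p under 0.05, 1 ABCI gene (16.7%) was higher and 1 (16.7%) lower, beside 14.2% and 12.6% of all tested genes. The ABC gene with no subfamily that was tested was also lower by that threshold. DESeq2 called that gene lower. Among 6 tested ABCI genes, the 3 described as ABCI19 had log2 differences between 0.39 and 0.66, and the 3 described as ABCI6, the plastid ATPase of iron-sulphur cluster assembly in Arabidopsis, lay between -0.55 and -0.34. The most abundant was TraesCS6B02G415600, described as ABCI19, with 8.90, 5.84 and 6.57 FPKM in purple grain and 5.12, 6.33 and 3.35 FPKM in white grain (0.64 ± 0.28 on the log2 scale, SE; edgeR adjusted p = 0.203). The ABCE2-described gene TraesCS1A02G218400, a relative of the ribosome recycling factor of yeast, differed by 0.12 (edgeR adjusted p = 0.860), and its sign turned under 4 other settings. The ABCA7-described gene TraesCS5B02G188600 differed by -0.50 (edgeR adjusted p = 0.198).

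TraesCS3D02G124400, described only as an ABC transporter, had 0.667, 1.42 and 1.02 FPKM in purple grain and 1.61, 2.95 and 6.20 FPKM in white grain (log2 difference -1.68 ± 0.54, SE; edgeR adjusted p = 0.117).

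Summed over all 346 members, ABCE and ABCF genes included, transcripts reached 588.5, 680.5 and 418.7 FPKM in purple replicates 1, 2 and 3. In white grain they reached 390.6, 589.2 and 428.8 FPKM. They took 0.0502% to 0.0890% of the summed FPKM of a purple library and 0.0480% to 0.0801% of a white one, and the groups overlap. Among the 10 groups plotted, ABCF sums were higher in every purple library, while those of the 3 ABC genes with no subfamily were lower in every purple library. The ABCA, ABCB, ABCC, ABCE, ABCG, PDR, ABCI and MATE sums overlapped.

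**Figure D5:**
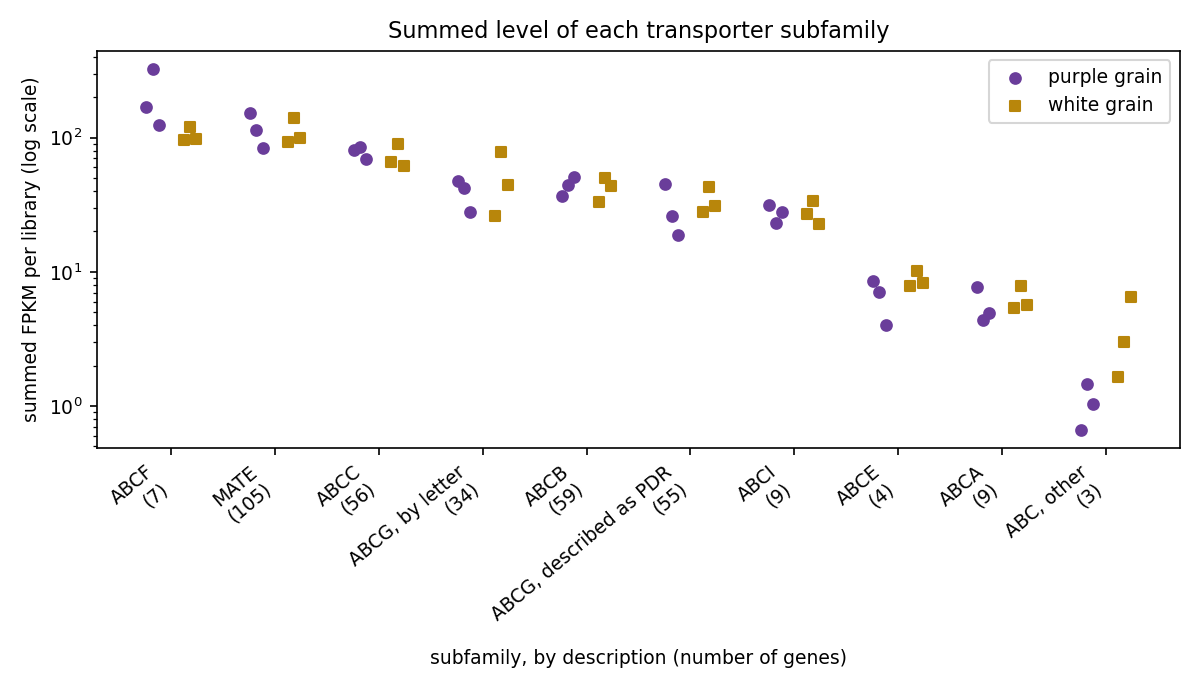
FPKM summed over all members of each of the 10 groups shown (vertical axis, log scale) in each library, with the number of genes in brackets; purple circles stand left of white-grain squares, and no test was run on sums. The ABCF sums are 124.9 to 326.2 FPKM in purple grain against 95.5 to 119.9 FPKM in white grain, and most other subfamilies overlap.

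Genes sharing a description and a chromosome group tended to lie on one side. Of the 18 sets with one description, one chromosome group and 3 tested genes, 13 had all 3 differences of one sign, 7 positive and 6 negative. These numbers were 7 and 5 with RLE or upper-quartile scaling, and 7 and 8 when scaled by library totals only. A set need not hold the A, B and D copies of a single gene. Genes of a set can share reads and are not independent.

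Below the level filter, a fit without the filter called 2 of the 140 members with low counts higher and none lower, beside 1.17% and 0.483% of the 31646 genes at that level. TraesCS7A02G183900 (chromosome 7A, 138501770 to 138523031), described as ABCG member 48, had 170, 181 and 49 counts in purple grain and 6, 8 and 7 counts in white grain (log2 difference 4.10; edgeR adjusted p = 0.0233). TraesCS4A02G059200 (chromosome 4A, 55377186 to 55380060), described as DETOXIFICATION 48-like, had 138, 44 and 42 counts in purple grain and 0 counts in each white library. With 3 counts set for each white library, its level was at least 22.7-fold higher in purple grain (edgeR adjusted p = 0.0331).

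Genes that work beside these transporters were counted in the same way. V-type proton ATPase subunits and the pyrophosphate-energized pump give the proton gradient that MATE proteins use, and none of 21 and 5 tested genes was called by edgeR. At an unadjusted edgeR p under 0.05, 4 ATPase genes (19%) were higher and 0 lower, and 0 pump genes were higher and 2 (40%) lower. Over all tested genes, 14.2% were higher and 12.6% lower by that threshold. DESeq2 called 1 ATPase gene higher and 2 pump genes lower. Glutathione S-transferases make the conjugates carried by ABCC proteins, and of 60 tested genes 2 (3.33%) were called higher and 1 (1.67%) lower by edgeR, with a median log2 difference of 0.74. At an unadjusted edgeR p under 0.05, 19 (31.7%) were higher and 4 (6.67%) lower. DESeq2 called 14 (23.3%) higher and 1 (1.67%) lower, beside 9.46% and 6.24% of all genes it tested. The glutathione S-transferases summed to 2141, 1866 and 938.4 FPKM in purple grain and 1094, 1270 and 866.2 FPKM in white grain.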

How the data were processed

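RNA sequencing libraries of purple and white wheat grain, 3 each, were analysed. Cutadapt, HISAT2 and StringTie were used, per the submitters' processing notes. Versions, strand setting, genome build and annotation are not given in the sources used here, and coordinates are those of the deposited table. Per the file headers, the table holds whole-number counts for each gene and library and the authors' FPKM values. Every FPKM value of a gene with a count of 0 was written as a small filler and was read as 0. The table has 12 further measurement columns, from 6 libraries, that match no labelled sample and were not used.

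Counts were tested with edgeR 4.0.16 in R 4.3.3 (TMM scaling, trended dispersion, quasi-likelihood test, no replicate block) over the 48492 genes averaging 0.5 FPKM or more, and p-values were adjusted by the Benjamini-Hochberg method over all of them. A log2 difference is purple over white, and its SE was taken from its size and the F statistic. A fold against libraries at 0 used 3 counts per library and covers counting error only. DESeq2 1.42.0, limma 3.58.1 on log2(FPKM + 1) and log2(FPKM + 0.1), other scalings, filters, thresholds and leaving out each library were alternatives. The fit was tested on simulated counts.

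The members, lists and rules were chosen with earlier results of these data known. Genes named are those called, the most abundant of each subfamily, and the 2 smallest p at a mean of at least 1 FPKM in ABCB, ABCC, ABCG, PDR and MATE. Up to 8 abundant genes described as TRANSPARENT TESTA 12 or DETOXIFICATION 35, 40 or 41 and the same-description copies of called genes are named too. For the 5A gene, only the tested ones and TraesCS5B02G355700 and TraesCS5D02G360400 are named. The results of 1 subfamily of few genes are not reported here.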

Additional observations from a re-analysis of the deposited data

How the results depend on the processing

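The comparison gave 3 members called higher and 2 lower. Calls higher numbered 6 with no level filter, 5 with filterByExpr, 11 with DESeq2, 7 at an adjusted p under 0.1, and 11 with a wider membership by KEGG orthology number, added after seeing the data. Calls lower numbered 1 at a mean of at least 1 FPKM, 1 with robust dispersions, 6 with DESeq2, 0 with limma on log2(FPKM + 1) and 9 with the wider membership. Leaving out 1 library gave 0 to 6 members higher and 0 to 2 lower. Neither gene called lower in the full comparison stayed called in any of those fits. Replicate numbers are shared by the groups, but same-numbered libraries deviated together with correlations of 0.183, 0.00700 and 0.336 across genes, so the pairing is not established, and not every library correlated best with its own number. A replicate block gave 3 members higher and 0 lower, losing TraesCS2B02G341800 (edgeR adjusted p = 0.0528) and gaining the ABCC2 gene TraesCS2D02G464800 (edgeR adjusted p = 0.0425). When scaled by library totals only, all tested genes had a median log2 difference of -0.111, against 0.017, and the members one of 0.033, with 2 members called higher and 2 lower. Over 35 named genes and 592 gene-level alternatives, no called difference turned sign, 30 lost a call and 15 gained one. Depth limits members under 0.5 FPKM, where a few counts decide a difference.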

Other observations

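The descriptions miss some transporters. Taking in genes that share a KEGG orthology number with at least 3 members, or whose description names an ABC gene or a multidrug extrusion protein, an extension chosen after seeing the data, added 246 genes. Of these 111 were tested, 8 (7.21%) were called higher and 7 (6.31%) lower by edgeR, beside 2.87% and 2.32% of all tested genes. A trio on chromosome group 7 carrying the K05681 number of ABCG members was read in purple grain and almost not in white grain. TraesCS7A02G342000 had 530, 457 and 369 counts in purple grain and 0 counts in each white library (edgeR adjusted p = 0.0055). TraesCS7B02G240900 had 433, 434 and 286 counts in purple grain and 0 counts in each white library (edgeR adjusted p = 0.00624). TraesCS7D02G337600 had 338, 303 and 240 counts in purple grain and 2, 0 and 0 counts in white grain (edgeR adjusted p = 0.0098). The log2 differences were 11.79 (7A), 11.55 (7B) and 8.44 (7D), values that depend on the prior count. These copies can share reads.

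TraesCS2B02G485600, whose description names ABCC1, had 6.70, 8.69 and 6.95 FPKM in purple grain and 3.34, 4.50 and 2.64 FPKM in white grain, with a log2 difference of 1.22 (edgeR adjusted p = 0.0363). TraesCS7A02G427700, with the K05658 number carried by ABCB members, had 23.8, 21.9 and 9.93 FPKM in purple grain and 1.57, 3.91 and 1.21 FPKM in white grain (log2 difference 3.22, edgeR adjusted p = 0.0227). In the other direction, TraesCS1B02G147700, whose description names ABCG12, a lipid exporter of the cuticle in Arabidopsis, had 0.213, 0.503 and 0.352 FPKM in purple grain and 2.75, 6.81 and 8.67 FPKM in white grain (log2 difference -3.95, edgeR adjusted p = 0.0152). Its 1A copy TraesCS1A02G126900 had a log2 difference of -1.95 (edgeR adjusted p = 0.0332).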
